A study of Mus musculus with 10 samples.

Results

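The pancreatic duct genes described here were 9 genes chosen by name as known markers of the duct epithelium: Krt7, Krt19, Sox9, Cftr, Slc4a4, Muc1, Spp1, Bicc1 and Pkhd1. They are 9 of the 52178 genes in the deposited table, each identified by an Ensembl mouse gene ID that maps to its symbol, and all 9 passed the filter on low counts. Their RNA was measured in isolated pancreatic islets of male C57Bl/6 retired breeder mice, in 10 RNA-seq libraries. The 5 exercise libraries (exercise 6 to 10) came from mice trained on a treadmill: after 3 days of acclimatization they ran in sessions of 1 h, 5 times a week over 2 weeks, at 17 cm/s and an incline of 5 degrees. The 5 sedentary libraries (sedentary 1 to 5) came from mice labelled sedentary. Islets of both groups were freed by collagenase injected into the pancreatic duct, picked by hand and plated in medium with 11 mM glucose. The labels name no transgene, give no age beyond retired breeder, and do not say which animal or animals gave each library. The p-values therefore reflect how libraries vary, in part perhaps for technical reasons.

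The duct system carries the enzymes of the acinar cells to the gut and adds a fluid rich in bicarbonate. Duct cells secrete bicarbonate by taking it up at their base through the cotransporter encoded by Slc4a4 and releasing it into the lumen with the help of the channel encoded by Cftr. They contain keratins of simple epithelia, carry a primary cilium, and keep the transcription factor SOX9, which marks progenitor cells in the embryonic pancreas. None of the 9 genes is exclusive to ducts: Krt19, Cftr and Sox9 are also used by the epithelium of the gut, Krt7 and Muc1 by that of the stomach, and Spp1 by macrophages. Islet preparations can hold fragments of duct and other tissue, and in bulk RNA fewer cells of a type and less RNA per cell cannot be told apart.

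Library totals lay between 15081922 and 23222704 counts. Values below are CPM, counts scaled to equal library size, on library sizes scaled by trimmed mean of M-values. Sedentary 1 and 2 stood apart from the other libraries, so the tests of duct genes were repeated without them. Over 20 islet endocrine markers the summed level was 9756 CPM in sedentary 1 and 44097 CPM in sedentary 2, against 157770 to 215784 CPM in exercise libraries and 156103 to 228821 CPM in sedentary 3 to 5. Over 24 markers of intestinal epithelium it was 329 to 945 CPM in exercise libraries and 3598 to 25336 CPM in sedentary libraries, highest in sedentary 1 and 2. Of its 23 tested members 23 fell and 0 rose in exercise, where 11.4% of all genes were called lower. Without sedentary 1 and 2, 23 of 24 tested members still fell, with a median log2 fold change of -3.10. For this list sedentary 3 to 5 had 3598 to 4917 CPM. The number lower was 17 with limma-voom, 21 of 24 without exercise 7, 8, 9 or 10, and 0 with the intestinal or the acinar level as covariate. Over 12 stomach markers the summed level was 5.22 to 39.95 CPM in exercise and 57.5 to 5607 CPM in sedentary libraries. It was highest in sedentary 1, where Pgc had 2842 CPM and Gkn3 7.89 CPM. In sedentary 2 to 5 most of it was Gkn3 alone, with 827 of 904, 127 of 149.6, 37.8 of 57.5 and 164 of 184 CPM. Over 23 acinar markers the summed level was 146987 to 389185 CPM in exercise and 66014 to 137185 CPM in sedentary libraries. Of the acinar markers 12 of 23 tested members rose, where 2.44% of all genes were called higher. That count was 2 without exercise 6, exercise 7, sedentary 2 or sedentary 5, 3 without exercise 9, 5 without sedentary 3 or with limma-voom, 6 without exercise 8, 20 with DESeq2 and 0 in the fit with intestinal level as covariate. Over 13 macrophage markers it was 203 to 556 CPM in exercise and 62.4 to 736 CPM in sedentary libraries, and 1 of 13 rose. No list had a member at 0 in all 10 libraries, but Cblif, the stomach gene of intrinsic factor, had 0 counts in all 5 exercise libraries. The part of these markers in the changes below was not tested.

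Promoter sequences are shown for Cftr and Slc4a4, the bicarbonate pair that fell in exercise, and for Pkhd1, which did not pass the test. They run from 250 bases before to 50 after the start of the gene, 5′ to 3′ on the gene's strand, and come from RefSeq on GRCm38.p6, which may not be the build behind the counts. They are in lower case throughout, since they held no match to the motif searched.
Cftr, chr6:18170437-18170736, plus strand: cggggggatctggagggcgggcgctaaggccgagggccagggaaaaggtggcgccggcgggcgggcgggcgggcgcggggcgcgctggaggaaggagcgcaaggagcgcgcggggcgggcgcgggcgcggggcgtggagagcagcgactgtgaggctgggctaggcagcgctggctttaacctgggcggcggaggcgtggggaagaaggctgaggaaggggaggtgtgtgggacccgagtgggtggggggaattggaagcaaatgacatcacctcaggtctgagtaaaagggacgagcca
Slc4a4, chr5:88887010-88887309, plus strand: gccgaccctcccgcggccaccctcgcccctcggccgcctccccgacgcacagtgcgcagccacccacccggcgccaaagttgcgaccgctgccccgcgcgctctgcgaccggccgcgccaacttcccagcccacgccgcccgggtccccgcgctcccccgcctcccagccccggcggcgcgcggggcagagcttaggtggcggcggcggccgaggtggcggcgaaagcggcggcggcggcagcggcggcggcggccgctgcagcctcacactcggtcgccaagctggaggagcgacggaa
Pkhd1, chr1:20618008-20618307, minus strand: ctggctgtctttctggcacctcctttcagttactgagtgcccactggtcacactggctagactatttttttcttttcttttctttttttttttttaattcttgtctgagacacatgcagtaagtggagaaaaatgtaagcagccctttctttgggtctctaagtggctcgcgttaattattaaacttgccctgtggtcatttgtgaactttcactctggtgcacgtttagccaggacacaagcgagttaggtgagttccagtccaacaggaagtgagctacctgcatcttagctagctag
Bases G and C made up 71.3% of the promoter of Cftr, 80.0% of this one of Slc4a4 and 43.3% of that of Pkhd1, where the median over all 32851 mouse promoters listed was 52.7%, with quartiles of 45.7 and 61.7%. ACAATG, a SOX motif, was searched on both strands, and 0 of the 8 promoters listed for 6 members held it, against 12.6% of all. Slc4a4 has a second, downstream start in the table, and its starts are known to give different forms of the protein, which counts per gene do not separate.

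The 9 genes did not move as a block. In exercise islets Krt19, Cftr and Slc4a4 fell, 0 rose, and the other 6 did not pass (edgeR quasi-likelihood test fitted on 15298 genes, Benjamini-Hochberg adjusted p under 0.05). Of all genes tested, 11.4% were called lower and 2.44% higher. The median log2 fold change, exercise over sedentary, was 0.25 over the 9 genes and -0.000719 over all genes tested, with 4 of the 9 below and 5 above 0. The median of the 9 turned to -0.20 without sedentary 1 and 2, to -0.11 with scaling to library totals alone and to -0.80 with the acinar level as a covariate, each with 6 of the 9 below 0. The group accounts for much of the acinar level's variance (r squared 0.652). Without a single library the median of the 9 lay between 0.01 (without exercise 6) and 0.52 (without sedentary 3). The 9 genes together took 0.0183 to 0.0302% of the counts of exercise libraries and 0.0292 to 0.130% of those of sedentary libraries, highest in sedentary 2. Krt19 alone gave 15815 of the 21960 member counts in sedentary 2 and 7334 of 11085 in sedentary 1, but 974 of 6031 in sedentary 4.

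**Figure D1:**
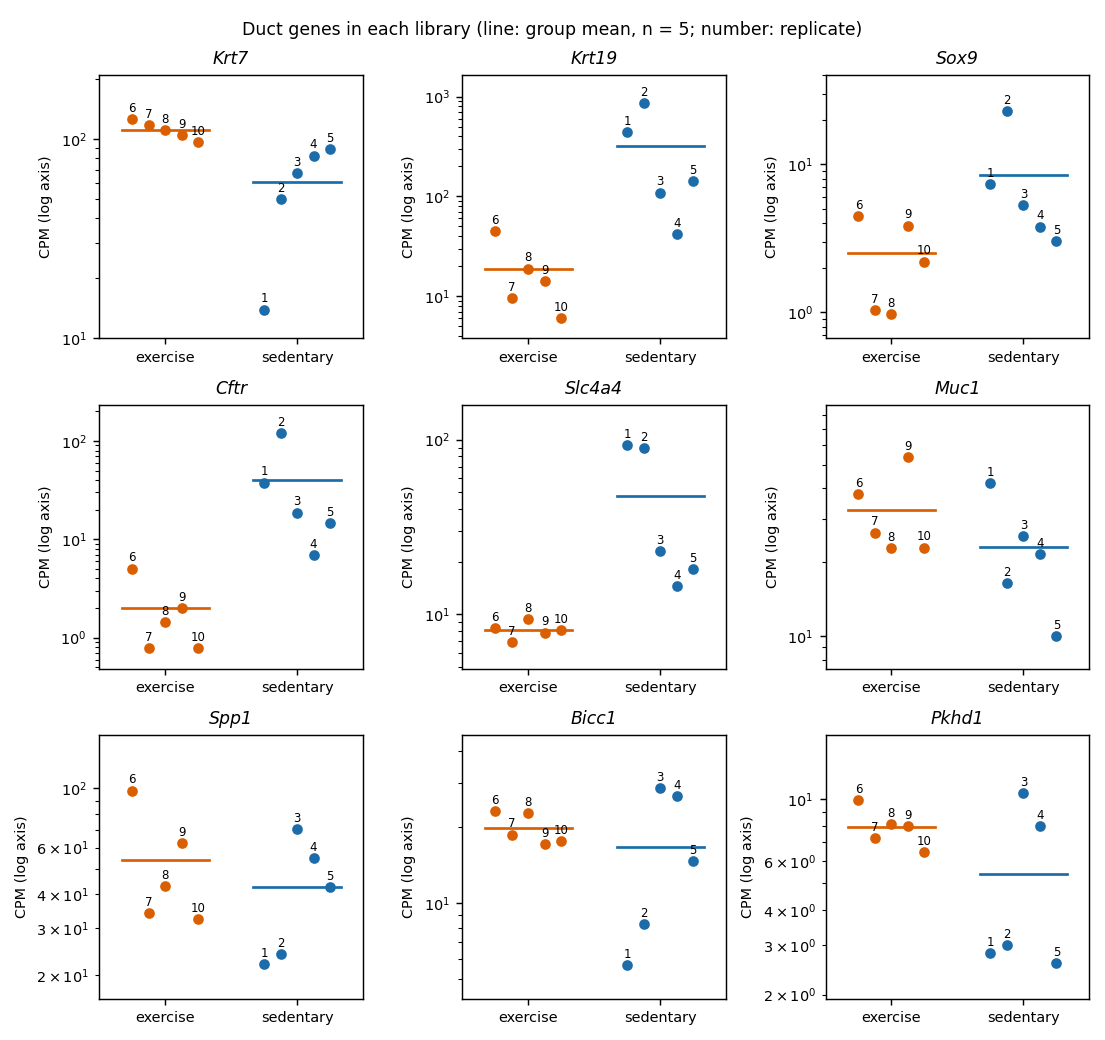
CPM (log axis) of each duct gene in the 5 exercise and 5 sedentary libraries, with the replicate number over each point and a line at the group mean. For Cftr and Slc4a4 all 5 exercise points lie below the 5 sedentary points, for Krt7 all lie above, and the groups overlap for the other 6 genes.

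Cftr, the chloride and bicarbonate channel of the luminal membrane, had 5.03, 0.781, 1.44, 2.00 and 0.781 CPM in exercise 6 to 10, against 37.8, 121, 18.7, 6.95 and 14.5 CPM in sedentary 1 to 5. Each exercise library lay below every sedentary library, as for 11.4% of all genes tested, and sedentary 2 was the highest. The exercise values rest on 12 to 90 counts per library. Cftr averaged 2.01 ± 1.76 CPM in exercise and 39.9 ± 46.9 CPM in sedentary libraries (SD, n = 5 each). Its log2 fold change was -4.31 ± 0.88 (SE) with an edgeR adjusted p = 0.0124. Without sedentary 1 and 2 it was -2.71 ± 0.55 (edgeR adjusted p = 0.0108), where 8.68% of 15692 genes were called lower.

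Slc4a4, the sodium bicarbonate cotransporter of the basal membrane, was even among exercise libraries, at 8.38, 6.97, 9.38, 7.86 and 8.10 CPM. The sedentary libraries had 92.6, 89.6, 23.1, 14.5 and 18.2 CPM, with no overlap, and sedentary 1 and 2 stood far above the other sedentary libraries. Group means were 8.14 ± 0.874 CPM in exercise and 47.6 ± 39.8 CPM in sedentary libraries (SD, n = 5 each), and the log2 fold change was -2.55 ± 0.54 (SE, edgeR adjusted p = 0.0150). Without sedentary 1 and 2 the change was -1.17 ± 0.16 (edgeR adjusted p = 0.00175), with 18.6 CPM on average in sedentary 3 to 5.

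Krt19, the keratin most used to stain ducts, had 44.8, 9.50, 18.9, 14.2 and 6.05 CPM in exercise 6 to 10 and 438, 864, 109, 42.1 and 143 CPM in sedentary 1 to 5. The groups overlapped through exercise 6, which lay above sedentary 4. The means were 18.7 ± 15.4 CPM in exercise and 319 ± 340.1 CPM in sedentary libraries (SD, n = 5 each), and the log2 fold change was -4.09 ± 0.88 (SE, edgeR adjusted p = 0.0156). It was -2.37 ± 0.58 without sedentary 1 and 2 (edgeR adjusted p = 0.0254). Each of these 3 calls also held in all 10 fits that left out a library in turn, with edgeR adjusted p up to 0.0494 for Krt19, 0.0433 for Cftr and 0.0473 for Slc4a4. With limma-voom the calls of Cftr (limma adjusted p = 0.0683) and Slc4a4 (limma adjusted p = 0.0758) were lost, where 2.22% of all genes were called lower.

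In these libraries the levels of Krt19 and Cftr varied less relative to the intestinal markers than by themselves. The SD over 10 libraries of their log2 CPM was 2.36 and 2.39, and that of their distance to the mean log2 CPM of the intestinal list was 0.83 for Krt19 and 0.78 for Cftr. For Slc4a4 the same SDs were 1.40 for its level and 1.20 for its distance. Among the 50 genes whose levels were most correlated with each of these 3 genes, 0 were intestinal markers. At most 23 of the 14403 genes searched were such markers, so a count of 0 among 50 says little. With the intestinal list's mean level as a covariate the log2 fold changes of Krt19, Cftr and Slc4a4 were 0.74, 0.31 and 0.64 (edgeR adjusted p = 0.851, 0.929 and 0.835), and 0 of all genes passed (370 at an unadjusted p under 0.05). The group accounts for most of that level's variance (r squared 0.800), so the covariate and the group cannot be told apart here.

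**Figure D2:**
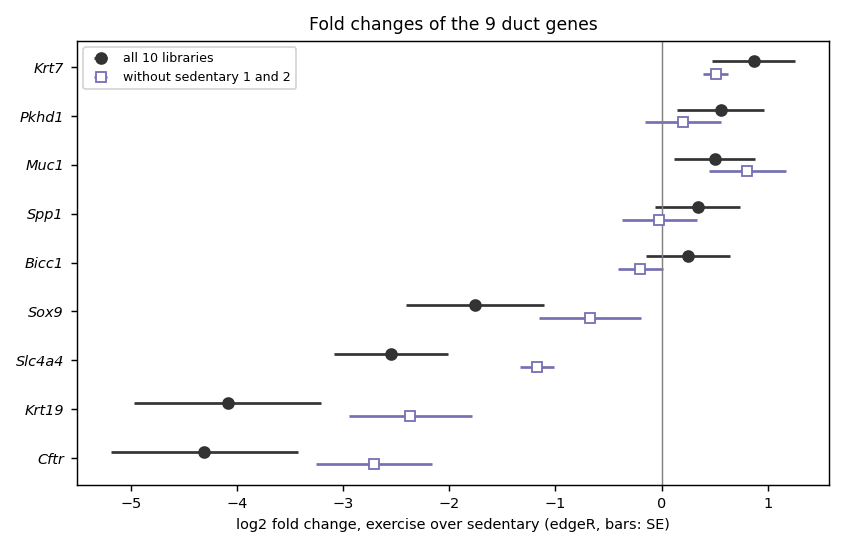
Log2 fold change, exercise over sedentary, of the 9 duct genes with its SE (edgeR), in all 10 libraries (filled circles) and without sedentary 1 and 2 (open squares). Cftr, Krt19 and Slc4a4 lie below 0 in both fits and are nearer to 0 without sedentary 1 and 2, at -2.71, -2.37 and -1.17.

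Sox9, the transcription factor of the duct lineage, lay on the same side without passing. It had 4.47, 1.04, 0.978, 3.86 and 2.20 CPM in exercise and 7.35, 23.0, 5.32, 3.80 and 3.04 CPM in sedentary libraries. Exercise 6 and 9 lay within the range of sedentary 3 to 5, and sedentary 2 was the highest library. The log2 fold change was -1.76 ± 0.65 (SE, edgeR adjusted p = 0.0919), -0.95 without sedentary 2 (edgeR adjusted p = 0.229) and -0.67 ± 0.48 without sedentary 1 and 2 (edgeR adjusted p = 0.393). DESeq2, which called 17.3% of all genes lower, also called Sox9 (adjusted p = 0.0290). So did edgeR with scaling to library totals alone (adjusted p = 0.0196), where 28.8% of all genes were called lower.

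Krt7, the other duct keratin of the list, went the other way from Krt19. It had 126, 117, 111, 105 and 96.7 CPM in exercise 6 to 10, against 13.9, 50.02, 67.2, 82.6 and 89.2 CPM in sedentary 1 to 5. Each exercise library lay above every sedentary library, as for 6.24% of all genes tested. The log2 fold change of 0.87 ± 0.39 did not pass (SE, edgeR adjusted p = 0.143), with means of 111 ± 11.3 CPM in exercise and 60.6 ± 30.2 CPM in sedentary libraries (SD, n = 5 each). Without sedentary 1 and 2, the libraries poorest in endocrine RNA, it was 0.51 ± 0.12 and passed (edgeR adjusted p = 0.0232), where 4.10% of all genes were called higher. The SD of the log2 CPM of Krt7 was 0.94, and that of its distance to the endocrine list's mean was 0.42. Among the 50 genes most correlated with Krt7 1 was an endocrine marker, where at most 20 of the 14403 genes searched were. In sedentary 1 Krt7 was at its lowest, 13.9 CPM, while Krt19 stood at 438 CPM.

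Pkhd1 and Bicc1 both cause cystic disease when lost. Pkhd1 encodes fibrocystin, a membrane protein of the duct cilium. It had 9.89, 7.23, 8.11, 7.99 and 6.44 CPM in exercise and 2.81, 3.00, 10.5, 7.99 and 2.59 CPM in sedentary libraries, low in sedentary 1, 2 and 5. Its log2 fold change of 0.56 ± 0.41 did not pass (SE, edgeR adjusted p = 0.339), nor did that of 0.20 ± 0.36 without sedentary 1 and 2 (edgeR adjusted p = 0.755). Bicc1, an RNA-binding protein needed for tubule shape, had 23.1, 18.7, 22.7, 17.2 and 17.6 CPM in exercise and 5.68, 8.30, 28.5, 26.5 and 14.7 CPM in sedentary libraries. Sedentary 3 and 4 lay above every exercise library and sedentary 1, 2 and 5 below. Its log2 fold change was 0.25 ± 0.40 (SE, edgeR adjusted p = 0.664), -0.20 without sedentary 1 and 2 and -0.11 with scaling to library totals alone, a scaling that moved the median of all genes to -0.341.

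Muc1, the mucin that spans the luminal membrane, had 38.0, 26.4, 22.8, 53.8 and 22.9 CPM in exercise and 42.1, 16.4, 25.6, 21.6 and 9.99 CPM in sedentary libraries. It was highest in exercise 9, the library with the highest acinar level, and the groups overlapped. Next came sedentary 1, the sedentary library with the highest stomach level (5607 CPM) and the highest acinar level (137185 CPM). The log2 fold change of 0.50 ± 0.38 did not pass (SE, edgeR adjusted p = 0.348). It was 0.81 ± 0.36 without sedentary 1 and 2 (edgeR adjusted p = 0.176) and -0.80 with the acinar level as a covariate (edgeR adjusted p = 0.497). That covariate goes largely with the group (r squared 0.652), so their parts cannot be fully told apart. The SD of the log2 CPM of Muc1 was 0.69, and that of its distance to the acinar list's mean was 0.48.

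Spp1 encodes osteopontin, a secreted protein of ducts and of activated macrophages. It had 98.1, 34.0, 43.0, 62.5 and 32.3 CPM in exercise and 21.9, 23.9, 70.1, 54.6 and 42.5 CPM in sedentary libraries. The groups overlapped, and exercise 6 was highest, as it was among exercise libraries for the macrophage list at 556 CPM. Sedentary 5 had the highest summed macrophage level of all, 736 CPM, of which Lyz2 gave 414 CPM, with 42.5 CPM of Spp1. By the macrophage list's mean log2 CPM exercise 6 was highest of all, at 4.74 against 4.57 in sedentary 5. The log2 fold change of Spp1 was 0.34 ± 0.40 (SE, edgeR adjusted p = 0.538), -0.02 without sedentary 1 and 2 and -0.08 with scaling to library totals alone.

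**Figure D3:**
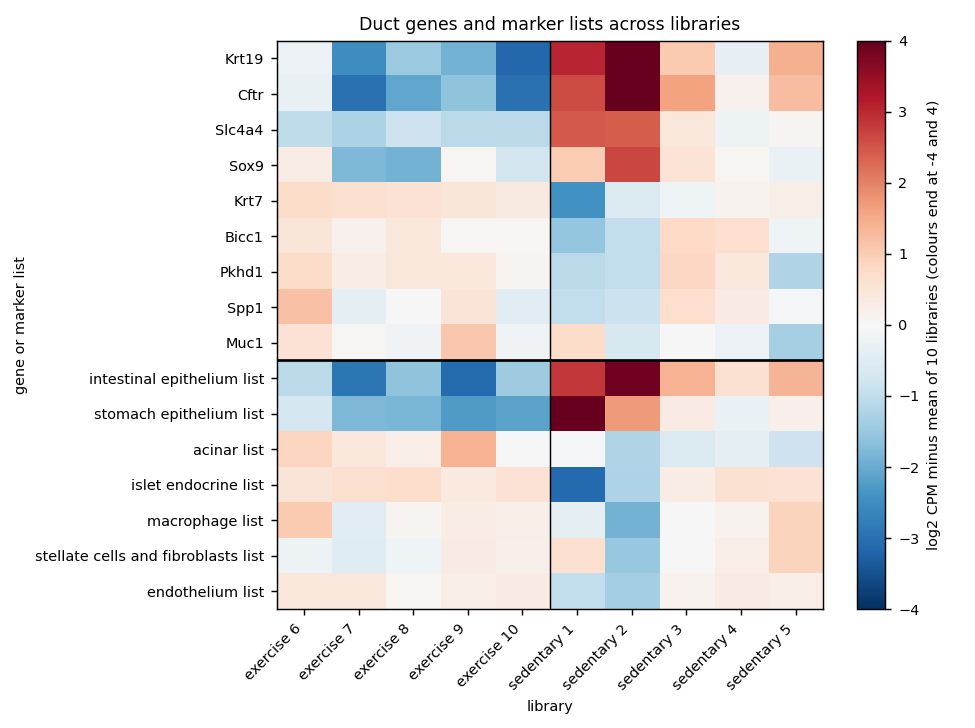
Level of each duct gene (log2 CPM, upper rows) and of each marker list (mean log2 CPM, lower rows) in each library, minus the row's mean over 10 libraries, with exercise libraries left of the vertical line. Krt19 and Cftr share the intestinal list's colours, highest in sedentary 2, while Krt7 is lowest in sedentary 1, as is the islet endocrine list.

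Per kilobase of the median protein-coding transcript of GENCODE M21, an approximation since the transcripts behind the counts are not given, the order of the 9 genes differed between the groups. In exercise libraries Krt7 was first at 46.9 ± 4.77 CPM per kb (SD, n = 5), followed by Spp1 at 38.3 ± 19.5, Muc1 at 14.6 ± 5.92 and Krt19 at 11.9 ± 9.76. Bicc1 at 6.14 ± 0.873 and Slc4a4 at 2.49 ± 0.267 CPM per kb came next, and Pkhd1, Sox9 and Cftr were last at 0.613 ± 0.0992, 0.607 ± 0.388 and 0.462 ± 0.407. Krt7 and Spp1, Muc1 and Krt19, and the last 3 genes lay within their spread of each other, and Krt19 lay within its own SD of Bicc1 and of Slc4a4 too. In sedentary libraries Krt19 was first at 202 ± 216 CPM per kb, ahead of Spp1 at 30.2 ± 14.5 and Krt7 at 25.6 ± 12.7, and Cftr was sixth at 9.18 ± 10.8. Krt19 was first in 4 of the 5 sedentary libraries. In sedentary 4 it stood at 26.7 CPM per kb, below Spp1 at 38.7 and Krt7 at 34.9 CPM per kb. With the longest transcript as the length, Spp1 came before Krt7 in exercise libraries and Cftr before Slc4a4 in sedentary libraries.

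The genes whose log2 CPM ran most like each member were sought among 14403 tested genes with a symbol and a mean of at least 1 CPM. Likeness is Pearson's r over the 10 libraries, given as a description, since sedentary 1 and 2 weigh heavily in it. Krt19 was most like Cox7a1 (r = 0.995), Ggt6 (r = 0.994) and Rab17 (r = 0.991), and Cftr like Lgals9 (r = 0.991), Ggt6 (r = 0.991) and Rab17 (r = 0.990). Slc4a4 ran like Crot (r = 0.998), an enzyme of fatty acid oxidation in peroxisomes, and Pfkp (r = 0.995), a phosphofructokinase. Krt7 was most like Pkdcc (r = 0.991), Tsc22d1 (r = 0.990) and Ube2e3 (r = 0.989), Bicc1 like Cdh4 (r = 0.981), and Muc1 like Myo16 (r = 0.973). Of the 50 genes most like Muc1, 7 were acinar markers. For Krt7 1 of the 50 was an endocrine marker, and for the other 7 members 0 were intestinal, endocrine or acinar markers. The 14403 genes searched held at most 23 intestinal, 20 endocrine and 23 acinar markers, so a count of 0 among 50 says little. With group means taken out, r was 0.990 for Krt19 and Cox7a1, 0.996 for Slc4a4 and Crot and 0.987 for Krt7 and Pkdcc.

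Other genes of the duct were read from 5 lists of 57 genes, of which 53 could be tested. In exercise 13 fell and 2 rose, 24.5% and 3.77% of those tested, against 11.4% and 2.44% of all genes. Their median log2 fold change was -0.46. Without sedentary 1 and 2, 12 fell and 2 rose, where 8.68% and 4.10% of all genes were called. The 13 falls were those of 6 transport genes, 3 surface genes, 2 keratins and 2 transcription factors. They include Slc26a3, Slc9a3 and Krt20, which are also typical of gut epithelium, so the total is not one of duct alone.

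Of 16 tested genes of ion and fluid transport 6 fell and 0 rose, where 11.4% of all genes were called lower and 2.44% higher. Their median log2 fold change was -1.20, -0.45 without sedentary 2 and -0.08 without sedentary 1 and 2. The number lower was 5 without any 1 exercise library, sedentary 1 or sedentary 2, and 7 without sedentary 4. It was 3 with limma-voom, 7 with DESeq2, and 0 with the intestinal or the acinar level as a covariate. With scaling to library totals alone it was 11, where 28.8% of all genes were called lower. Car2, the carbonic anhydrase that makes bicarbonate, had 2.45 ± 1.33 CPM in exercise and 56.9 ± 60.01 CPM in sedentary libraries (SD, n = 5 each, log2 fold change -4.52, edgeR adjusted p = 0.00900; -2.82 without sedentary 1 and 2). The exchangers Slc26a6 (-3.74), Slc26a3 (-4.84) and Slc9a3 (-4.80), their scaffold protein Nherf1 (-2.96) and the potassium channel Kcnn4 (-1.60) also fell. Their log2 fold changes without sedentary 1 and 2 were nearer to 0, at -2.42 for Slc26a6, -3.26 for Slc26a3, -3.20 for Slc9a3, -1.77 for Nherf1 and -0.76 for Kcnn4, whose call was lost (edgeR adjusted p = 0.0779). Slc26a3 and Slc9a3 are the main chloride and sodium exchangers of the intestinal brush border. The duct water channel Aqp1 had 29.9 ± 16.4 CPM in exercise and 39.9 ± 22 CPM in sedentary libraries and did not pass (edgeR adjusted p = 0.569, and 0.766 without sedentary 1 and 2). Sctr, the receptor for secretin, the hormone that sets off duct secretion, was too low to be tested, with 1, 0, 0, 0 and 3 counts in exercise and 18, 0, 0, 0 and 1 counts in sedentary libraries.

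Of 8 transcription factor and Notch genes 2 fell and 1 rose, where 11.4% of all genes were called lower and 2.44% higher. With limma-voom 0 of the 8 were called, where 2.22% of all genes were called lower. Onecut2, a factor of the developing pancreas and gut, fell (log2 fold change -3.57, edgeR adjusted p = 0.0106), and so did Ehf, a factor of mucosal epithelia (-1.64, edgeR adjusted p = 0.0429). The log2 fold change without sedentary 1 and 2 was -1.86 for Onecut2 and -0.88 for Ehf (edgeR adjusted p = 0.00231 and 0.0255). Glis3, a factor of ducts and beta cells, rose to 104 ± 14.5 CPM in exercise, against 29.6 ± 20.5 CPM in sedentary libraries (edgeR adjusted p = 0.0387). It was lowest in sedentary 1 and 2, at 4.96 and 17.5 CPM, and rose by 1.34 without them (edgeR adjusted p = 0.00638). The call of Glis3 was lost without any 1 exercise library or sedentary 2 or 5 (edgeR adjusted p up to 0.0832), and that of Ehf without any 1 exercise library or sedentary 1 (up to 0.102).

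Of 12 tested surface and secreted proteins 3 fell and 0 rose, where 11.4% of all genes were called lower and 2.44% higher. Epcam, the adhesion molecule of epithelia, had 78.6 ± 11.0 CPM in exercise and 319 ± 259 CPM in sedentary libraries (log2 fold change -2.02, edgeR adjusted p = 0.0194). The tetraspanin Tspan8 (-2.14) and the tight junction gene Cldn7 (-2.25) also fell. These fell by less without sedentary 1 and 2, with log2 fold changes of -0.99 for Epcam, -1.10 for Tspan8 and -1.20 for Cldn7 (edgeR adjusted p up to 0.00865). Epcam did not pass without exercise 7, 8, 9 or 10 (edgeR adjusted p up to 0.0569), nor Cldn7 without exercise 7 or 9 (edgeR adjusted p up to 0.0514). Prom1, a membrane protein used to sort duct cells, had 39.99 ± 12.7 CPM in exercise and 61.8 ± 18.4 CPM in sedentary libraries and did not pass (edgeR adjusted p = 0.113, and 0.106 without sedentary 1 and 2). Of the 4 other keratins, Krt20, which is typical of gut epithelium, and Krt8 fell (log2 fold changes -4.16 and -2.17, edgeR adjusted p = 0.00971 and 0.0273). Their log2 fold changes were nearer to 0 without sedentary 1 and 2, at -2.95 and -0.89 (edgeR adjusted p = 0.00895 and 0.0249). Krt18, the partner of Krt8 in the filament, had 96.8 ± 26.6 CPM in exercise and 82.1 ± 24.5 CPM in sedentary libraries (edgeR adjusted p = 0.468, and 0.172 without sedentary 1 and 2). The call of Krt8 was lost without any 1 exercise library or sedentary 1 (edgeR adjusted p up to 0.0735).

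Of 13 cilium and polycystic disease genes 0 fell and 1 rose, where 11.4% and 2.44% of all genes were called lower and higher. Of the 13, 12 had a log2 fold change above 0, with a median of 0.54, and of 0.15 without sedentary 1 and 2. With scaling to library totals alone 9 of them lay above 0 and 0 were called higher. The lean was shared by other lists: 18 of 20 islet endocrine markers (median 0.60) and 9 of 9 endothelial markers (median 0.32) lay above 0. Pkd1, encoding polycystin 1, had 156 ± 12.9 CPM in exercise and 73.4 ± 37.8 CPM in sedentary libraries (log2 fold change 1.09, edgeR adjusted p = 0.0467). It was lowest in sedentary 1, 2 and 5, at 36.8, 41.8 and 62.1 CPM, and its call was lost in 8 of the 10 fits without a library, each but those without sedentary 3 or 4 (edgeR adjusted p up to 0.103). It passed without sedentary 1 and 2 (log2 fold change 0.72, edgeR adjusted p = 0.0363). Pkd2, its channel partner, had 50.6 ± 5.37 CPM in exercise and 27.4 ± 14.8 CPM in sedentary libraries and did not pass (edgeR adjusted p = 0.119, and 0.0769 without sedentary 1 and 2).

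**Figure D4:**
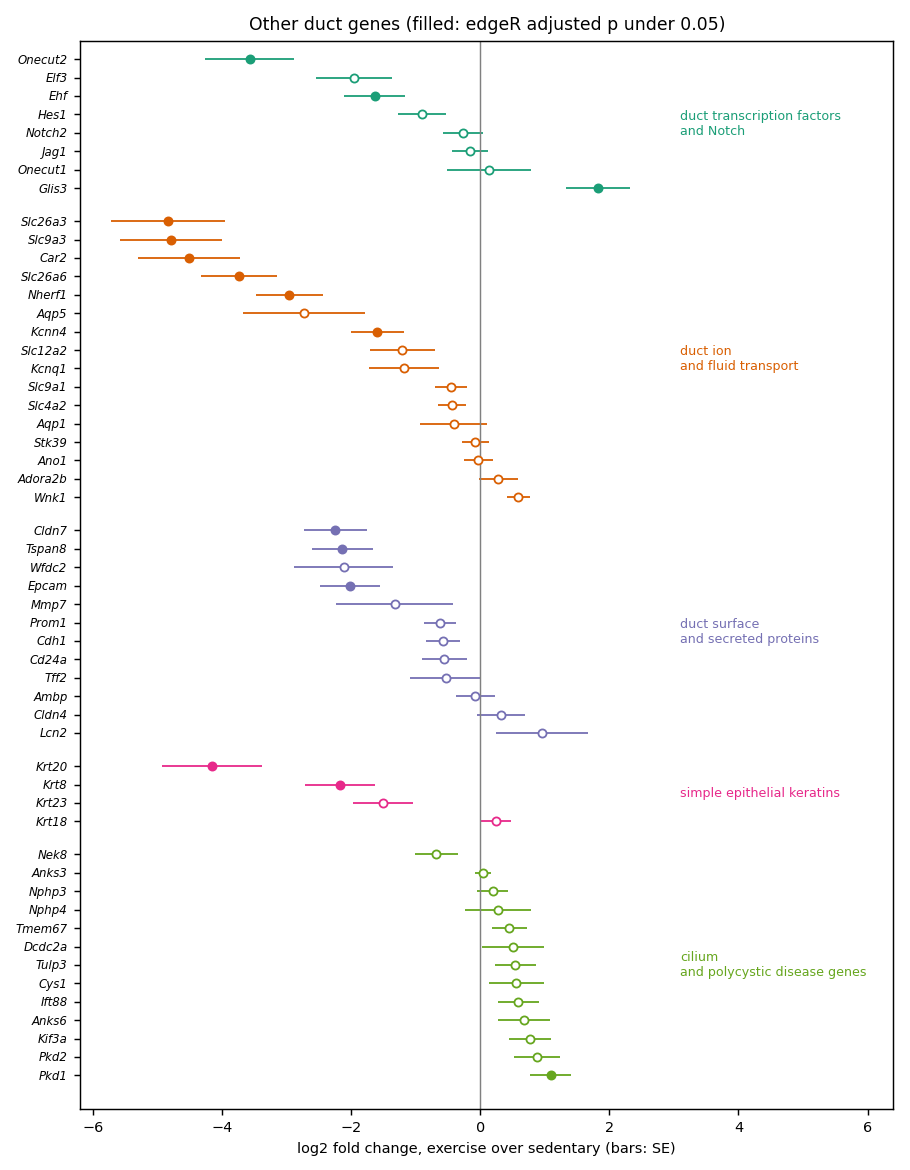
Log2 fold change, exercise over sedentary, with SE (edgeR, 10 libraries) of 53 other duct genes in 5 lists, filled where the adjusted p is under 0.05. The 6 filled transport genes lie below 0, while 12 of the 13 cilium and polycystic disease genes lie above it (9 with scaling to library totals alone) and 1 of them, Pkd1, is filled.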

How the data were processed

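RNA of isolated islets was sequenced in 10 libraries, 5 exercise and 5 sedentary, from stranded mRNA libraries per the labels' protocols. In the deposited file the authors gave estimated counts, unscaled, for each Ensembl gene. The submitters' processing notes name fastp and kallisto. Their versions, the genome build, the annotation and the summing of transcripts are not stated in those notes or labels. Of the values, 12.6% were not whole (tolerance 1e-06), and estimated counts were rounded. No library repeats another: the most similar of 45 pairs differed with a chi-square of 8.95 per degree of freedom. With pseudoaligned reads, the division of counts between genes with shared sequence is uncertain.

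The test was edgeR's quasi-likelihood test (edgeR 4.0.16, R 4.3.3) after its default low-count filter (minimum count 10, minimum total 15), on TMM-scaled library sizes, with Benjamini-Hochberg adjustment over 15298 genes and a threshold of 0.05. The SE is the log2 fold change divided by the root of the F statistic. Log2 CPM uses a prior count of 2. Alternatives were other scalings and filters, DESeq2 1.42.0, limma-voom (limma 3.58.1), marker levels as covariates, and leaving out libraries. Symbols came from a table of gene names, with older symbols for Nherf1 (Slc9a3r1) and Cblif (Gif). Muc4 and Muc6 were not analysed here, some genes and a motif of the naming rules are not reported here, and Muc20 and Sctr were too low to be tested.

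The members, gene lists, motifs and alternatives were chosen with earlier results of these data known, among them that sedentary 1 and 2 stand apart. All 9 members are named, and of each other duct list the 4 genes past the threshold of smallest p, with Sctr, Car2, Aqp1, Epcam, Prom1, Krt8, Krt18 and Pkd2 whatever they showed. Slc26a3 and Kcnn4 were named after their values were seen, as were Cblif, Gkn3 and Pgc among stomach markers and Lyz2 among macrophage markers. Reads carried no molecular identifiers, so a count is not a number of independent molecules.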

Additional observations from a re-analysis of the deposited data

Results flagged for a closer look

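Of 52 groups of 5 libraries examined for the members and named duct genes, 1 held a library far from the others by Dixon's test, where chance gives about 1 in 20. Prom1 stood at 5.97 log2 CPM (62.4 CPM) in exercise 6, above the other 4 exercise libraries, with a gap of 0.767 of the group's range.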

How the results depend on the processing

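The log2 fold changes of Krt19, Cftr and Slc4a4 were below 0 in all fits except that with the intestinal level as a covariate. With the acinar level none (0) of the 3 passed (edgeR adjusted p = 0.432, 0.469 and 0.371 for Krt19, Cftr and Slc4a4). Both covariates go largely with the group (r squared 0.800 for the intestinal and 0.652 for the acinar level), which limits what these fits can separate. Of the 9 duct genes 3 were called lower with all 10 libraries, 3 in each fit without a library, 1 with limma-voom, and 0 with the intestinal or the acinar level as a covariate. None (0) was called higher with all libraries or without any 1 library, and 1 was without sedentary 1 and 2. Of the other duct genes, 13 lower and 2 higher with all libraries, 25 were lower and 0 higher with scaling to library totals alone, 6 and 0 with limma-voom, and 0 and 0 with either covariate. Upper-quartile scaling and no filter on low counts left 1 higher. Without a library, between 8 and 17 of them were lower and between 0 and 3 higher. Over all genes 1745 were lower and 374 higher, against 4408 and 159 with library totals alone, 2642 and 1097 with DESeq2, 339 and 177 with limma-voom, 0 and 0 with either covariate, and 1362 and 644 without sedentary 1 and 2. Without a library, 800 to 2721 were lower and 132 to 889 higher. With the intestinal covariate the log2 fold change was -0.06 for Krt7, 0.74 for Krt19, 1.01 for Sox9, 0.31 for Cftr, 0.64 for Slc4a4, -0.45 for Spp1, -1.11 for Bicc1, -0.55 for Pkhd1, 0.70 for Onecut2, 0.67 for Ehf, 0.08 for Car2, 0.21 for Nherf1, 0.49 for Tspan8, 0.82 for Cldn7, 0.77 for Epcam, 0.93 for Krt8, -0.25 for Pkd1, 1.27 for Aqp1 and -0.51 for Pkd2, each of opposite sign to that without it. With the acinar level it was -0.80 for Muc1 and -0.59 for Spp1, with library totals alone -0.08 for Spp1, -0.11 for Bicc1 and -0.13 for Krt18, and without sedentary 1 and 2 -0.02 for Spp1, -0.20 for Bicc1 and 0.27 for Aqp1, also of opposite sign. The causes of these differences were not tested. Of 520 values of 26 genes under 20 alternatives, 422 kept sign and side of the threshold. No paired analysis was possible because the groups share no replicate number. Cftr and Sox9 rest on few counts in exercise libraries, which limits the precision of their fold changes.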
